A study of Caenorhabditis elegans with 24 samples.

Results

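The fip, fipr and idpp genes of Caenorhabditis elegans are grouped here as genes of secreted proteins of low sequence complexity. Their RNA levels are described in worms lacking set-9, set-26 or both. The members were chosen by name and by a measured value: gene entries of the RNA-seq count table whose symbol begins with fip-, fipr- or idpp- and a number, and that had 20 or more reads in at least 1 of the 8 libraries. Of 46508 genes in the table, 52 carry such a name and 39 were members, 3 of 7 fip genes, 22 of 29 fipr genes and 14 of 16 idpp genes. RNA was measured in whole worms at the L4 larval stage in 4 genotypes with 2 libraries each: the set-9 set-26 double mutant, the set-26 single mutant, the set-9 single mutant and N2, the wild-type strain. The alleles used in the study were set-9(rw5) and set-26(tm2467), and the double mutant strain was kept as a balanced heterozygote over nT1. Homozygous worms were collected either from the progeny of these heterozygotes or from a later generation of double mutant parents. The labels do not give the generation of the double mutant worms in these libraries. Synchronized worms were grown on NGM plates, total RNA was freed of ribosomal RNA, and libraries were made from it with a NuGEN kit. Nothing in the labels says that the 2 libraries of a genotype came from separate cultures, so p-values measure the spread between these libraries, which may be technical.

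SET-9 and SET-26 are paralogous chromatin proteins with a PHD finger, which reads methylated histone H3, and a SET domain. The fip genes were named as Fungus-Induced Proteins, small peptides of the epidermis induced when the fungus Drechmeria coniospora infects the worm, and the fipr genes are annotated as FIP Related. The idpp genes are annotated as Intrinsically Disordered Proteins expressed in the Pharynx, the muscular feeding organ, whose lumen is lined by a cuticle that is shed and rebuilt at each molt together with that of the body. Epidermal antimicrobial peptides of the nlp and cnc classes are induced through a p38 MAP kinase cascade and, for several cnc genes, through TGF-beta signalling.

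The annotated proteins fitted the name of the group in part. In the WBcel235 assembly, the 22 fipr proteins had a median length of 73.5 residues, the 3 fip proteins 75 and the 14 idpp proteins 270, against a median of 329 for all 19973 protein-coding genes. Under 100 residues were 17 of the 22 fipr proteins and all 3 fip proteins, while 0 of the 14 idpp proteins were that short, so the idpp proteins were not short peptides. A hydrophobic window of 11 residues starting within the first 20, a coarse mark of a signal peptide, was found in 36 of 39 members (92.3%) and in 31.8% of all protein-coding genes. It was not found in fipr-2, fipr-3 and fipr-5. The fipr proteins were rich in glycine, with a median of 19.2% against 4.85% for all genes, although that of fipr-2 held none. The idpp proteins held a median of 15% glutamine and asparagine and 4.34% cysteine, against 8.54% and 1.82% for all genes.

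The upstream DNA is shown for some members that lay next to each other or differed most between genotypes. The annotated starts of several of them follow closely on the letters TATAAA, the core of a TATA box. Every stretch printed held these letters on either strand. Those of fipr-2 and fipr-4, which did not hold them within 150 bases, are left out. All coordinates and strands are those of WBcel235, sequences were read from the RefSeq copy of that assembly, and the letters TATAAA and GTAAACA, on either strand, are in capitals. GTAAACA is the binding element of DAF-16, the FOXO transcription factor of the insulin pathway. The first stretch is the whole 244 bases between the divergent genes fipr-5 and fipr-9, V:10221418-10221661, on the + strand and reading toward fipr-9.
fipr-5 to fipr-9: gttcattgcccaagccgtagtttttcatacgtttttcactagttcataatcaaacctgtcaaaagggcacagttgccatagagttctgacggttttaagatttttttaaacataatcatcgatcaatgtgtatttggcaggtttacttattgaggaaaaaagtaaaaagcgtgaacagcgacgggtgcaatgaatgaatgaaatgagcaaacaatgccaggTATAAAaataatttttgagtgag
The next 3 are the 150 bases before fipr-7 (V:10229679-10229828, + strand), fipr-1 (V:12361745-12361894, - strand) and idpp-15 (III:8524923-8525072, + strand), which were the members with the highest read levels among those that were lower in the double mutant.
fipr-7: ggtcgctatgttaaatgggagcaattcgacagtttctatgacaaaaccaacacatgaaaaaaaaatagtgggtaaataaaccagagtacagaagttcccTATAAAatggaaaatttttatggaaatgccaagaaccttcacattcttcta
fipr-1: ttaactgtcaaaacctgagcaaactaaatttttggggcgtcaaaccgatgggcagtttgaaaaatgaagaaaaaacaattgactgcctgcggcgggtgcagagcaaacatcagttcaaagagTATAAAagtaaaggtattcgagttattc
idpp-15: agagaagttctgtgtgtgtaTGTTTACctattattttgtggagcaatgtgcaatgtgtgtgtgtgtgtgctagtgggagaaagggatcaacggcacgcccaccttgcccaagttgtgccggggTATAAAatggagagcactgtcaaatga
The 150 bases before fipr-18 (III:7459165-7459314, + strand), fipr-20 (III:7462396-7462545, - strand) and fipr-19 (III:7458947-7459096, - strand) belong to members read almost only in the double mutant.
fipr-18: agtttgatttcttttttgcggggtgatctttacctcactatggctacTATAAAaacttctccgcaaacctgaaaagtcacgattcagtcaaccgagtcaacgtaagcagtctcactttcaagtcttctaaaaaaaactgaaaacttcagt
fipr-20: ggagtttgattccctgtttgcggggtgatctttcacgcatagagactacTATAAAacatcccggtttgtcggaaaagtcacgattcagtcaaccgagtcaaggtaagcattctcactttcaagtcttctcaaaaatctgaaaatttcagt
fipr-19: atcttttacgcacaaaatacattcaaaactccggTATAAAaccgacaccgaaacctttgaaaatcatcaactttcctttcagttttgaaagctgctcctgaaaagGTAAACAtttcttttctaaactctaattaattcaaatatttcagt
The last pair, 150 bases before fip-5 (X:10302591-10302740, + strand) and before fipr-21 (X:10304379-10304528, + strand), belongs to neighbours of which fip-5 passed the test and fipr-21 did not.
fip-5: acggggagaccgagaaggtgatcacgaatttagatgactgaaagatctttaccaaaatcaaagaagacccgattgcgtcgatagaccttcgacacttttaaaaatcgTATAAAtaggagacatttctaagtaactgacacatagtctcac
fipr-21: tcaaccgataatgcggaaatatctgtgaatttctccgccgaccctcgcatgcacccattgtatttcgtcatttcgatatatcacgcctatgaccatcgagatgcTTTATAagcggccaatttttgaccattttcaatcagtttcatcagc
In the sequences printed, TATAAA on the strand of the gene ended 17 bases before the annotated start of fipr-9, 21 before idpp-15, 22 before fipr-1, 37 before fip-5 and 45 before fipr-7. It ended 95 to 110 bases before fipr-18, fipr-19 and fipr-20, whose annotated models are single exons of coding sequence only, and it was found only on the opposite strand before fipr-21. The stretches of fipr-18 and fipr-20 shared 125 of 150 bases (83.3%) in an alignment. Over the 250 bases before the start, TATAAA on either strand occurred in 28 of 39 members (71.8%) and in 7021 of 19973 protein-coding genes (35.2%). It occurred in 8 of the 13 members lower in the double mutant. This motif was searched after the sequences had been seen. GTAAACA on either strand occurred in 7 of 39 members (17.9%), namely fipr-2, fipr-3, fipr-4, fipr-19, idpp-7, idpp-9 and idpp-15, and in 4.36% of all genes. GATAA, the core of sites for GATA factors such as ELT-3, occurred in 35.9% of members and 52.2% of all genes, and TTCNNNGAA, a STAT site, in 10.3% and 14.7%. The nuclear receptor motif AGGTCA was in 5.13% of members and 7.10% of all genes, and TGATAA, a longer form that contains GATAA, in 20.5% and 26.8%. Neighbouring members share parts of these windows, and a match of letters was not tested as a site.

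Library totals ran from 16363189 to 26187811 reads, and 3 reads stood at 0.115 to 0.183 CPM, counts scaled to library size. The 39 members together took 0.123% and 0.112% of reads in the double mutant, 0.173% and 0.176% in set-26, 0.164% and 0.181% in set-9, and 0.156% and 0.168% in N2. Levels below are CPM on TMM-scaled library sizes. The set-9 gene itself stood at 30.6 and 33 CPM in the double mutant, 115 and 107 CPM in set-26, 46.0 and 39.9 CPM in set-9, and 90.4 and 91.4 CPM in N2, so its level was lowest in the 4 libraries labelled as lacking it, although its reads could be shared with those of set-26, its near-identical paralog. The set-26 gene was not analysed here. Each library was run on a lane of its own, replicate 1 on the first 4 lanes and replicate 2 on the last 4. The worms were whole animals, so fewer cells of a type and less RNA per cell cannot be told apart in any value below.

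fipr-21, on chromosome X (X:10304529-10304867, a single exon), was by far the most abundant member. It stood at 803 and 771 CPM in the double mutant, 665 and 816 CPM in set-26, 762 and 901 CPM in set-9, and 832 and 1183 CPM in N2. Both N2 libraries lay above those of the double mutant and of set-26, while the set-9 libraries overlapped N2 and the mutants overlapped one another. Its log2 fold change was −0.36 in the double mutant, −0.44 in set-26 and −0.28 in set-9 against N2 (SE 0.18 in each), and it passed no test (lowest adjusted p = 0.243). It alone made up 40.1% to 73.2% of the summed CPM of all members in a library. Per kilobase of exon, the mean over the 8 libraries was 2482 CPM for fipr-21, 317 for fipr-7, 186 for fipr-1, 145 for fipr-2, 91.3 for idpp-15, 70.2 for fip-2, 53.6 for fipr-9 and 45.2 for fip-5. The lowest library of fipr-21 (1962 CPM per kilobase) exceeded the highest of fipr-7 (548), whereas the ranges of fipr-7, fipr-1 and fipr-2 overlapped one another, so the order of these 3 did not exceed their spread. fip-2, on chromosome V, passed no test and stood at 22 and 21.1 CPM in the double mutant, 27.8 and 28.1 CPM in set-26, 24.9 and 35.0 CPM in set-9, and 22.3 and 22.4 CPM in N2. idpp-11, which passed no test either, stood at 15.8 and 9.58 CPM in the double mutant, 25.4 and 12.4 CPM in set-26, 18.4 and 9.31 CPM in set-9, and 16.4 and 5.73 CPM in N2, and the genotypes overlapped widely. Exons of fip-2 and of idpp-11 overlap genes on the other strand, and the strand setting of the counting is not given in the sources used here.

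**Figure D1:**
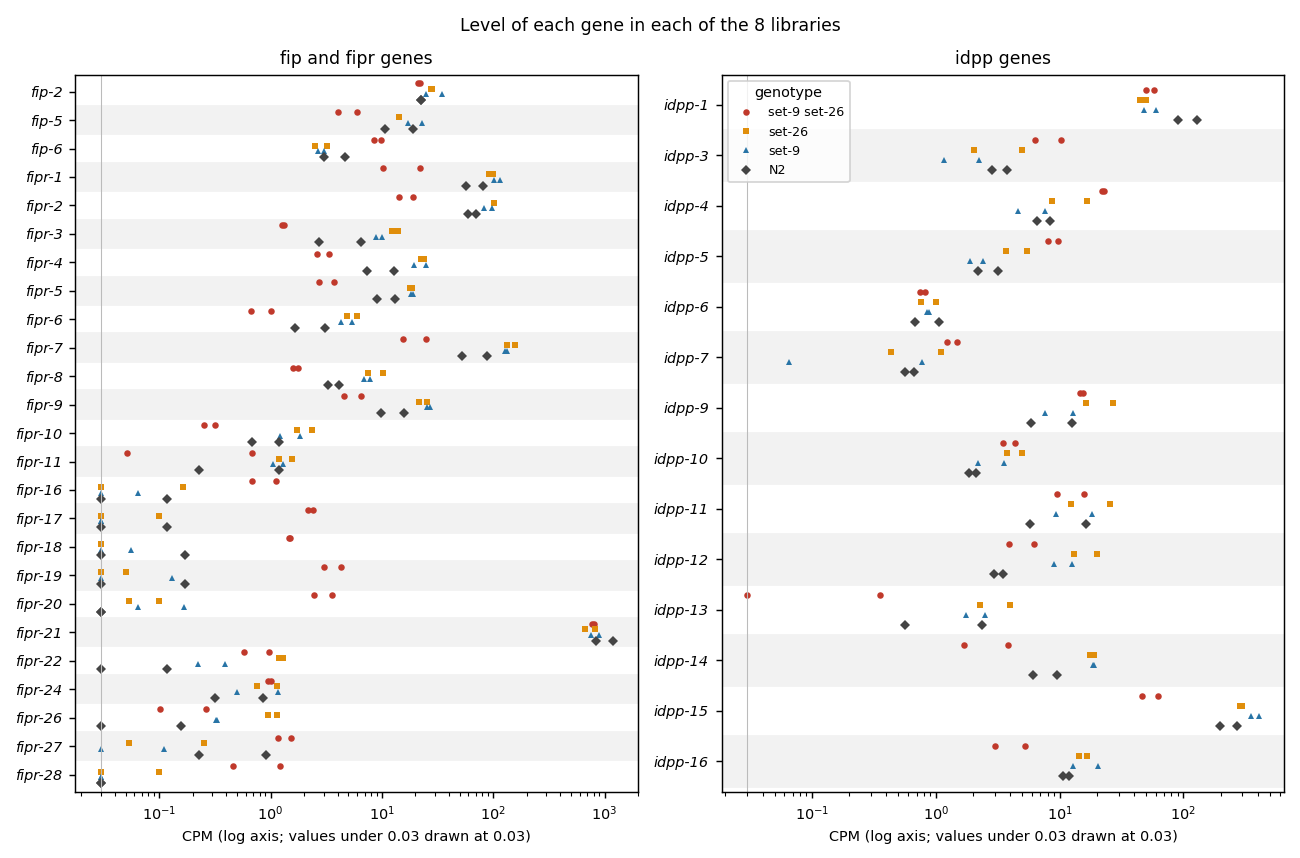
Level of each of the 39 genes in each of the 8 libraries, in CPM on a log axis, with fip and fipr genes on the left and idpp genes on the right; each point is 1 library and the 4 colours are the genotypes. fipr-1 to fipr-9 lie lowest in the 2 set-9 set-26 libraries, fipr-16 to fipr-20 lie highest there, and fipr-21 lies above every other gene in all 8 libraries.

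In the double mutant 19 of the 39 members passed the test against N2 (edgeR's quasi-likelihood test, 5% false discovery rate over 14667 genes), 13 of them lower and 6 higher. Of all genes tested, 5.91% were called lower and 4.42% higher. Of the 6 higher members, 3 (fipr-17, fipr-19 and fipr-20) had 20 or more reads in double mutant libraries alone, so that only the other 3 can be read against the share of all genes. Passed, called and not called refer to this test in all that follows unless another tool or setting is named. The median log2 fold change was −0.05 over the members and 0.01 over all genes. The lower group comprised 8 of 22 fipr genes, 4 of 14 idpp genes and fip-5, and it held every member of the numbers fipr-1 to fipr-9 except fipr-6. The calls depended on single libraries: fewer members passed without N2 replicate 1 or without either double mutant library. Calls over all genes fell as well in these fits, where 1 library of a genotype remained. fipr-1, fipr-2 and idpp-15 passed under every alternative tried, with adjusted p at most 0.048.

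idpp-15 (III:8525073-8528657), a protein with a prion-like domain rich in glutamine and asparagine, was the second most abundant member by CPM and the fifth per kilobase of exon. It stood at 62.6 and 46.3 CPM in the double mutant, 297 and 289 CPM in set-26, 351 and 407 CPM in set-9, and 269 and 199 CPM in N2. The double mutant libraries lay below all 6 others. The log2 fold change was −2.10 in the double mutant (SE 0.20, adjusted p = 0.003), a 4.30-fold lower level, beside 0.33 in set-26 and 0.69 in set-9, which did not pass (adjusted p = 0.454 and 0.170).

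The adjacent genes fipr-1 (V:12361301-12361744) and fipr-2 (V:12365348-12365869), on opposite strands and pointing away from each other, were both lower in the double mutant. fipr-1 stood at 22.1 and 10.2 CPM in the double mutant, 99.0 and 90.9 CPM in set-26, 102 and 115 CPM in set-9, and 80.5 and 56.9 CPM in N2. Its log2 fold change was −2.09 in the double mutant (SE 0.33, adjusted p = 0.013), beside 0.46 in set-26 and 0.66 in set-9. fipr-2 stood at 19.2 and 14.3 CPM in the double mutant, 102 and 103 CPM in set-26, 82.3 and 97.8 CPM in set-9, and 70.4 and 59.0 CPM in N2. Its log2 fold change was −1.95 in the double mutant (SE 0.17, adjusted p = 0.003), beside 0.66 in set-26 and 0.48 in set-9. Neither single mutant value of either gene passed the test, and for both genes the double mutant libraries were the 2 lowest of the 8.

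A further 6 fipr genes form a cluster on chromosome V, in the order fipr-5, fipr-9, fipr-4, fipr-7, fipr-6 and fipr-8, from base 10220981 to base 10239961. Their summed level was 41.1 and 27.8 CPM in the double mutant, 239 and 209 CPM in set-26, 215 and 204 CPM in set-9, and 137 and 83.3 CPM in N2. fipr-7 carried most of it, with 25 and 15.5 CPM in the double mutant, 158 and 132 CPM in set-26, 133 and 128 CPM in set-9, and 88.0 and 52.2 CPM in N2. For this gene the 4 single mutant libraries lay above both N2 libraries and the double mutant libraries below both. The log2 fold change of fipr-7 was −1.80 in the double mutant (SE 0.29, adjusted p = 0.013), 1.05 in set-26 (adjusted p = 0.111) and 0.89 in set-9 (adjusted p = 0.227), the last 2 short of the threshold.

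The divergent pair fipr-5 and fipr-9 showed the same order of genotypes. fipr-5 stood at 3.71 and 2.75 CPM in the double mutant, 17.9 and 18.5 CPM in set-26, 19.2 and 18.3 CPM in set-9, and 13.2 and 8.96 CPM in N2 (log2 fold change −1.78 in the double mutant, SE 0.24, adjusted p = 0.008). fipr-9 stood at 6.52 and 4.54 CPM in the double mutant, 25.3 and 21.5 CPM in set-26, 25.4 and 26.8 CPM in set-9, and 15.9 and 9.87 CPM in N2 (log2 fold change −1.23, SE 0.27, adjusted p = 0.032). The single mutant changes of fipr-5 were 0.71 in set-26 and 0.75 in set-9, and those of fipr-9 were 0.85 and 1.01, none of which passed. fipr-4 stood at 3.34 and 2.60 CPM in the double mutant, 22.6 and 23.7 CPM in set-26, 24.8 and 19.5 CPM in set-9, and 12.8 and 7.37 CPM in N2 (log2 fold change −1.77, SE 0.29, adjusted p = 0.014). Its single mutant changes were 1.19 in set-26 (adjusted p = 0.070) and 1.12 in set-9 (adjusted p = 0.134). In each of these 3 genes the double mutant libraries lay below N2 and the single mutant libraries above it.

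fipr-8, at the far end of the cluster, was the only fipr gene to pass in a single mutant. It stood at 1.59 and 1.78 CPM in the double mutant, 10.2 and 7.46 CPM in set-26, 7.78 and 6.97 CPM in set-9, and 4.10 and 3.29 CPM in N2. The fitted log2 change was −1.13 in the double mutant (SE 0.26, adjusted p = 0.037), 1.25 in set-26 (SE 0.24, adjusted p = 0.044) and 0.99 in set-9 (adjusted p = 0.137). fipr-6 did not pass against N2 in the double mutant, where it stood at 1.01 and 0.66 CPM, against 3.11 and 1.64 CPM in N2 (log2 fold change −1.52, SE 0.41, adjusted p = 0.055). The 6 genes of the cluster are near copies: fipr-6 and fipr-8 proteins were 98.6% identical, fipr-7 and fipr-8 97.3%, and 22.8% to 88.5% of the 50-base stretches of their exons occur more than once in the genome. Reads could therefore have been divided between them by the counting, and the level of a single gene of the cluster, of fipr-8 above all, is uncertain, whereas their sum is less exposed to this.

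**Figure D2:**
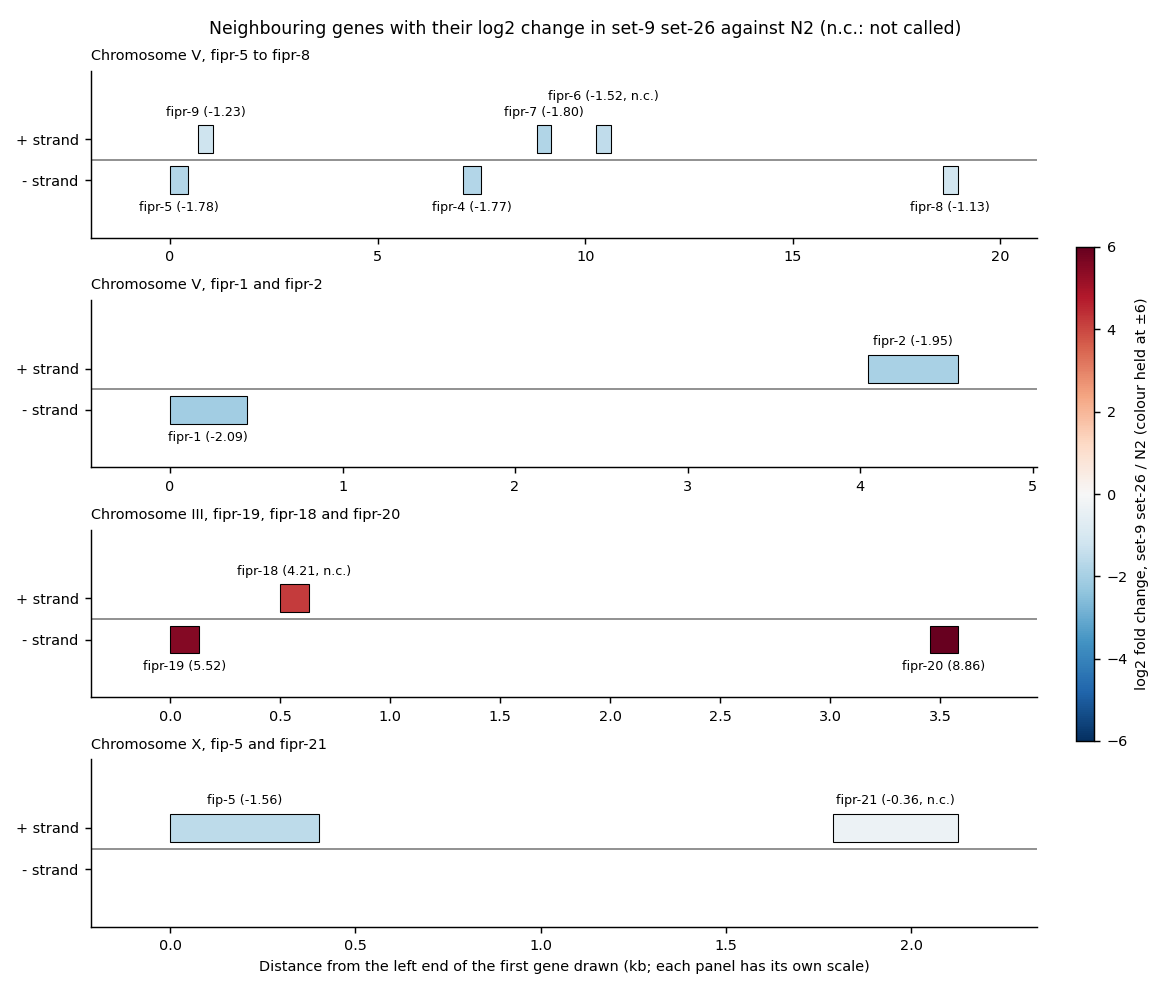
Positions of neighbouring members in 4 places of the genome, as distance in kb from the first gene drawn, with genes of the + strand above the line and of the - strand below it. Colour and the number in brackets give the log2 fold change of the double mutant against N2; the genes of the 2 places on chromosome V run from −2.09 to −1.13, and the 3 on chromosome III lie above 4, where the fitted values of genes near 0 reads are not bounds.

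Elsewhere in the genome, fipr-3 (X:14423405-14423883) stood at 1.27 and 1.33 CPM in the double mutant, 13.9 and 12.2 CPM in set-26, 8.78 and 10.1 CPM in set-9, and 6.54 and 2.72 CPM in N2. This was a log2 fold change of −1.85 in the double mutant (SE 0.41, adjusted p = 0.032), beside 1.47 in set-26 and 1.01 in set-9. An exon of fipr-3 overlaps F23D12.11 on the other strand. fip-5 (X:10302741-10303143) stood at 6.04 and 4.03 CPM in the double mutant, 14.2 and 14.1 CPM in set-26, 23 and 17.1 CPM in set-9, and 19 and 10.7 CPM in N2, a log2 fold change of −1.56 (SE 0.32, adjusted p = 0.027), with −0.07 in set-26 and 0.43 in set-9. fip-5 lies 1386 bases before fipr-21 on the same strand, and the double mutant libraries were its 2 lowest although fipr-21 did not pass.

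The remaining lower members were idpp genes. idpp-14 (X:16082347-16085799) stood at 3.87 and 1.68 CPM in the double mutant, 19.1 and 17.5 CPM in set-26, 18.8 and 19.2 CPM in set-9, and 9.49 and 6.13 CPM in N2. Its log2 fold change was −1.50 in the double mutant (SE 0.37, adjusted p = 0.042), beside 1.22 in set-26 and 1.27 in set-9. idpp-16 (V:11604482-11606524), whose protein has a prion-like domain like that of idpp-15, stood at 5.30 and 3.01 CPM in the double mutant, 14.4 and 16.8 CPM in set-26, 12.9 and 20.4 CPM in set-9, and 12 and 10.6 CPM in N2. On the log2 scale the change was −1.45 (SE 0.32, adjusted p = 0.032), beside 0.46 in set-26 and 0.55 in set-9. Both genes have exons that overlap another gene, C30F2.2 on the other strand and dhs-20 on the same strand.

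idpp-1 stood below N2 in all 3 mutants. This gene (III:740682-742941), annotated as a protein of the SXP/RAL-2 family, stood at 49.8 and 58.1 CPM in the double mutant, 44.3 and 49.8 CPM in set-26, 47.7 and 60.2 CPM in set-9, and 90.4 and 128 CPM in N2. All 6 mutant libraries lay below both N2 libraries. The log2 fold change was −1.02 in the double mutant (SE 0.20, adjusted p = 0.022), −1.22 in set-26 (SE 0.20, adjusted p = 0.028) and −1.02 in set-9 (SE 0.20, adjusted p = 0.076), the last short of the threshold. At 682 residues, idpp-1 encodes the longest protein among the members.

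Of the 6 members higher in the double mutant, 3 were measured in every genotype. idpp-4 (II:10321460-10324850) stood at 22.9 and 21.9 CPM in the double mutant, 16.7 and 8.65 CPM in set-26, 7.61 and 4.62 CPM in set-9, and 8.43 and 6.58 CPM in N2 (log2 fold change 1.57, SE 0.34, adjusted p = 0.032). idpp-5 (X:3789742-3792815), annotated as activated when the unfolded protein response is blocked, stood at 8.06 and 9.79 CPM in the double mutant, 5.50 and 3.68 CPM in set-26, 2.39 and 1.89 CPM in set-9, and 2.21 and 3.18 CPM in N2 (log2 fold change 1.74, SE 0.30, adjusted p = 0.017). Their single mutant changes, 0.75 and 0.78 in set-26 and −0.29 and −0.32 in set-9, did not pass. fip-6, on chromosome I, stood at 9.80 and 8.56 CPM in the double mutant, 3.20 and 2.49 CPM in set-26, 3.0 and 2.67 CPM in set-9, and 2.99 and 4.71 CPM in N2 (log2 fold change 1.26, SE 0.28, adjusted p = 0.033), with changes of −0.42 in set-26 and −0.43 in set-9. In these 3 genes the double mutant libraries were the 2 highest.

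The other 3 were fipr genes read almost only in the double mutant, which passed the filter of 20 reads only through that genotype, so that their difference from N2 is a consequence of how they were selected. fipr-19 had 81 and 59 reads in the double mutant, 1 and 0 in set-26, 0 and 2 in set-9, and 0 and 3 in N2, a ratio of 52.2 to N2 with a 95% counting interval of 17.5 to 256. fipr-20 had 68 and 48 reads in the double mutant, 2 and 1 in set-26, 3 and 1 in set-9, and none in N2, which makes the double mutant at least 21-fold higher, taking a floor of 3 reads for each N2 library. fipr-17 lies on chromosome III, 2367366 bases from the nearest gene of these names. It had 41 and 47 reads in the double mutant, 2 and 0 in set-26, 0 in both set-9 libraries, and 3 and 0 in N2, a ratio of 32.8 (10.9 to 162). The adjusted p was 0.026 for fipr-19, 0.008 for fipr-20 and 0.038 for fipr-17. A further 3 passed the filter only through the double mutant and were not called by edgeR with this filter, although fipr-18 and fipr-28 were called with no filter on low counts. The 3 were fipr-18 with 28 and 29 reads there and 0 and 3 in N2, fipr-16 with 13 and 22 there and 3 and 0 in N2, and fipr-28 with 23.2 and 8.59 estimated reads there and 0 in both N2 libraries. The intervals and the floor cover counting error only.

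fipr-19, fipr-18 and fipr-20 lie in that order on chromosome III (bases 7458815 to 7462395) and summed to 9.38 and 6.93 CPM in the double mutant, 0.150 and 0.0541 CPM in set-26, 0.222 and 0.195 CPM in set-9, and 0 and 0.340 CPM in N2. Their annotated models are single coding exons of 129 or 132 bases with proteins of 42 or 43 residues. fipr-18 and fipr-19 proteins were 97.7% identical, and 27.7% to 32.5% of the 50-base stretches of the 3 genes recur in the genome, so reads could have been divided among them. fipr-16 and fipr-17 are also single coding exons, of 150 and 144 bases.

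In the set-26 single mutant 3 members passed, 2 higher and 1 lower, where 0.975% of all genes were called higher and 1.42% lower. The median log2 fold change was 0.75 over the members and 0.01 over all genes. An unadjusted p under 0.05 was found for 19 members, 17 of them higher, and for 2395 of all 14667 genes in either direction. Among the 17 are fipr-22 and fipr-26, whose higher level in set-26 follows from how they were selected. Another is fipr-20, with 2 and 1 reads in set-26 and none in N2. Besides fipr-8 and idpp-1, the member called was idpp-12, on chromosome IV (IV:3303990-3304569). It stood at 6.25 and 3.92 CPM in the double mutant, 20.3 and 13.2 CPM in set-26, 12.7 and 8.99 CPM in set-9, and 3.51 and 2.95 CPM in N2. Its log2 fold change was 2.37 in set-26 (SE 0.33, adjusted p = 0.018), a 5.16-fold higher level, beside 1.74 in set-9 (adjusted p = 0.074) and 0.65 in the double mutant (adjusted p = 0.240). Of its 50-base stretches, 33.2% recur in the genome. The count fell to 0 without N2 replicate 2, without set-26 replicate 1 or without set-26 replicate 2, and to 1 without either library of the double mutant. fipr-22 and fipr-26 passed the filter only through set-26, where they had 26 and 22, and 19 and 21 reads, against 3 and 0, and 4 and 0 reads in N2. edgeR called neither with this filter, and fipr-22 was called by DESeq2's Wald test and by edgeR with no filter.

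In the set-9 single mutant 0 of 39 members passed, where 0.198% of all genes were called higher and 0.266% lower by edgeR. At an unadjusted p under 0.05 there were 15 members, 13 of them higher, and 1947 of all 14667 genes in either direction. DESeq2's Wald test called 7 members, 6 of them higher, and 502 of 14667 genes in either direction. Without N2 replicate 1 edgeR called 2 members, 1 in each direction. The median log2 fold change was 0.51 over the members and −0.00 over all genes. By class it was 0.69 for the 22 fipr genes, 0.23 for the 14 idpp genes and 0.42 for the 3 fip genes, against 0.89, 0.76 and −0.07 in set-26. The 2 single mutants share their N2 libraries.

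Set against each other, set-26 and set-9 differed in 0 of 39 members, where 0.443% of all genes were called higher in set-26 and 0.252% lower. At an unadjusted p under 0.05 there were 4 of 39 members, all of them higher in set-26, and 2133 of all 14667 genes in either direction. DESeq2's Wald test called 0 members and 459 of 14382 genes. For fipr-7 the difference was 0.15 on the log2 scale (SE 0.28) and for idpp-15 it was −0.37 (SE 0.19), and neither passed.

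**Figure D3:**
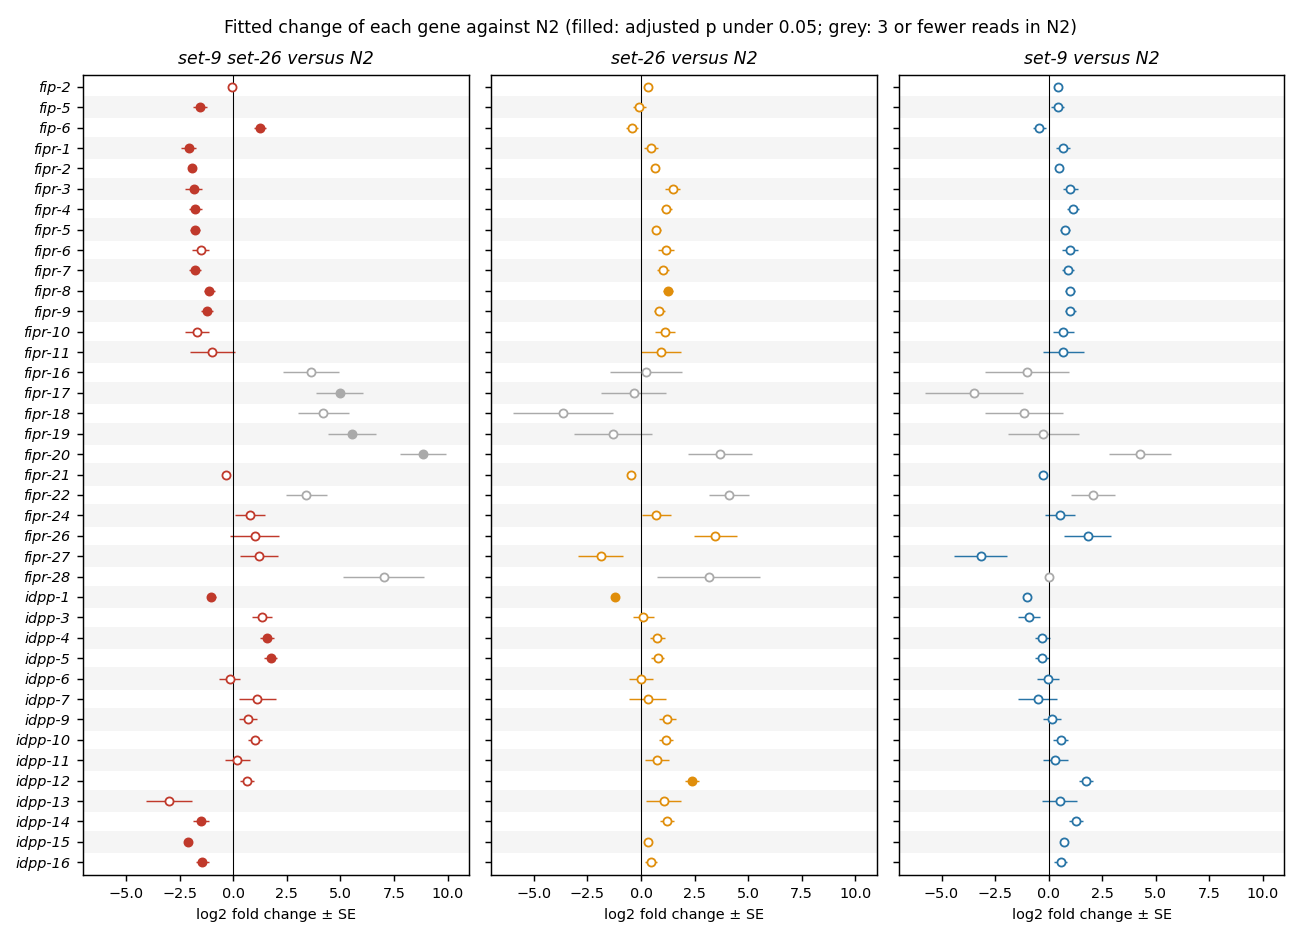
Fitted log2 fold change of each of the 39 genes against N2, with its standard error, for the double mutant, set-26 and set-9 from left to right; filled points passed the test and grey points are genes with 3 or fewer reads in N2. fipr-1 to fipr-10 lie left of 0 in the double mutant and right of 0 in both single mutants, with fipr-8 the filled point among them in set-26.

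The next question was whether the effects of losing set-9 and set-26 added up, on the log2 scale, in worms lacking both, a test of the interaction in the same fit. The double mutant departed from the sum for 18 of 39 members, 15 below the sum and 3 above it, where 5.60% of all genes were called below and 8.27% above. The median difference was −0.89 over the members and −0.00 over all genes. This difference contains that of the double mutant from N2, from the same libraries, so members called in both are not separate support. The difference was −4.33 for fipr-3 (SE 0.54, adjusted p = 0.006), −4.08 for fipr-4 (SE 0.40, adjusted p = 0.002), −3.73 for fipr-7 (SE 0.41, adjusted p = 0.004) and −3.12 for idpp-15 (SE 0.27, adjusted p = 0.002), the last meaning a level 8.71-fold below the sum. idpp-12, higher in set-26, was below the sum by −3.46 (SE 0.46, adjusted p = 0.007), and fipr-6, which had not passed against N2, by −3.71 (SE 0.55, adjusted p = 0.010). fipr-10, on chromosome V, stood at 0.32 and 0.25 CPM in the double mutant, 2.35 and 1.73 CPM in set-26, 1.22 and 1.82 CPM in set-9, and 1.18 and 0.68 CPM in N2, a difference of −3.49 (SE 0.73, adjusted p = 0.024). Above the sum were fip-6 by 2.12 (SE 0.41, adjusted p = 0.020), idpp-1 by 1.22 (SE 0.28, adjusted p = 0.030) and fipr-27 by 6.25 (SE 1.61, adjusted p = 0.042). The value for idpp-1 came from a double mutant level close to that of either single mutant. That for fipr-27 rested on few reads, 29 and 23 in the double mutant, 5 and 1 in set-26, 2 and 0 in set-9, and 23 and 4 in N2. Without double mutant replicate 2 the count was 11, all below the sum, and 11 of the 18 members passed under every alternative tried.

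Across the 39 members, 23 passed in at least 1 of the 5 comparisons and 16 in none. At the edge of the filter, fipr-24 and fipr-26 were the members with the fewest reads in their highest library, 21 each, and idpp-8 and idpp-2 were the nearest named genes outside it, with 17 and 16.7 reads. Of the 13 named genes outside the filter, 3 had 0 reads in every library.

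Other genes of the same tissues were counted from lists chosen with earlier results of these data known. Of 21 nlp and cnc peptides, 13 were tested. In the double mutant 2 were higher, cnc-4 by 2.92 and nlp-34 by 0.85 on the log2 scale, and 1 was lower, cnc-8 by −1.07 (edgeR, adjusted p = 0.010, 0.032 and 0.007). In set-26 nlp-29, an antimicrobial peptide gene induced by fungal infection and wounding, was higher by 1.29 (SE 0.21, adjusted p = 0.029), and in set-9 none passed. Against the sum of the set-26 and set-9 changes 5 of the 13 were below, nlp-29 by −2.76, cnc-8 by −1.92, nlp-27 by −1.84, nlp-24 by −1.65 and nlp-31 by −1.03, and cnc-3 was above by 1.53. The median difference from the sum was −1.03 over these peptides and −0.89 over the fip, fipr and idpp members. The summed level of all 21 was 470 and 464 CPM in the double mutant, 476 and 516 CPM in set-26, 625 and 577 CPM in set-9, and 500 and 494 CPM in N2. All 25 fip and fipr members summed to 943 and 873 CPM in the double mutant, 1170 and 1282 CPM in set-26, 1225 and 1388 CPM in set-9, and 1175 and 1425 CPM in N2. Without fipr-21, which holds most of that sum, the other 24 summed to 139 and 102 CPM in the double mutant, 505 and 467 CPM in set-26, 463 and 487 CPM in set-9, and 343 and 242 CPM in N2.

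Of 16 genes of epidermal innate immune signalling, 2 were lower in the double mutant, the epidermal GATA factor elt-3 by −0.84 (SE 0.13, adjusted p = 0.012) and the phospholipase C gene plc-3 by −1.14 (SE 0.20, adjusted p = 0.016), and none passed in either single mutant. Against the sum of the set-26 and set-9 changes 4 were lower, elt-3, the p38 MAP kinase gene pmk-1 (−0.95), the SMAD gene sma-3 (−1.12) and the protein kinase C gene tpa-1 (−1.28). Of 14 tested genes of the other intrinsically disordered protein classes (idpa, idpb and idpc), 0 passed in the double mutant and idpc-7 was higher in set-26 (1.82, SE 0.33, adjusted p = 0.039). Their median log2 fold change was 0.79 in the double mutant, where that of all genes was 0.01.

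Markers of the pharynx and of the time within the L4 stage also moved with genotype. The 9 markers of pharyngeal muscle and gland summed to 566 and 494 CPM in the double mutant, 1069 and 1070 CPM in set-26, 998 and 1189 CPM in set-9, and 982 and 1032 CPM in N2. In the double mutant 3 of the 9 were lower, the pharyngeal myosins myo-1 (−0.98, SE 0.13) and myo-2 (−1.03, SE 0.12) and the pharyngeal troponin C tnc-2 (−1.27, SE 0.20), and in the single mutants none passed. Among the members, the median log2 fold change in the double mutant was 0.42 over the 14 idpp genes, −0.66 over the 22 fipr genes and −0.05 over the 3 fip genes. The fipr genes include 6 that passed the filter only through the double mutant. The 16 molting and apical matrix genes summed to 8440 and 8312 CPM in the double mutant, 6095 and 7046 CPM in set-26, 6304 and 8564 CPM in set-9, and 12716 and 16513 CPM in N2, and the N2 libraries were the highest. The 7 adult and late cuticle genes summed to 5871 and 5335 CPM in the double mutant, 2181 and 1418 CPM in set-26, 1891 and 1394 CPM in set-9, and 4217 and 5798 CPM in N2, and the single mutant libraries were the lowest. The 6 furrow collagens, whose RNAs peak within each larval stage, summed to 522 and 522 CPM in the double mutant, 380 and 513 CPM in set-26, 384 and 574 CPM in set-9, and 865 and 1171 CPM in N2. The 11 sperm entries summed to 395 and 415 CPM in the double mutant, 176 and 122 CPM in set-26, 108 and 52.0 CPM in set-9, and 237 and 112 CPM in N2. These markers departed from the sum of the set-26 and set-9 changes as well. Above the sum were 6 of 7 adult and late cuticle genes (median difference 4.16), 8 of 11 sperm entries (2.69) and 3 of 6 furrow collagens (1.32). Of the 16 molting and apical matrix genes 10 were above it and 3 below (median 1.32), and of the 9 pharyngeal markers myo-1, myo-2 and tnc-2 were below it (median −0.46). None of these markers was at 0 in all libraries, and the part of pharyngeal tissue, of stage and of the germ line in the values of the members was not tested.

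**Figure D4:**
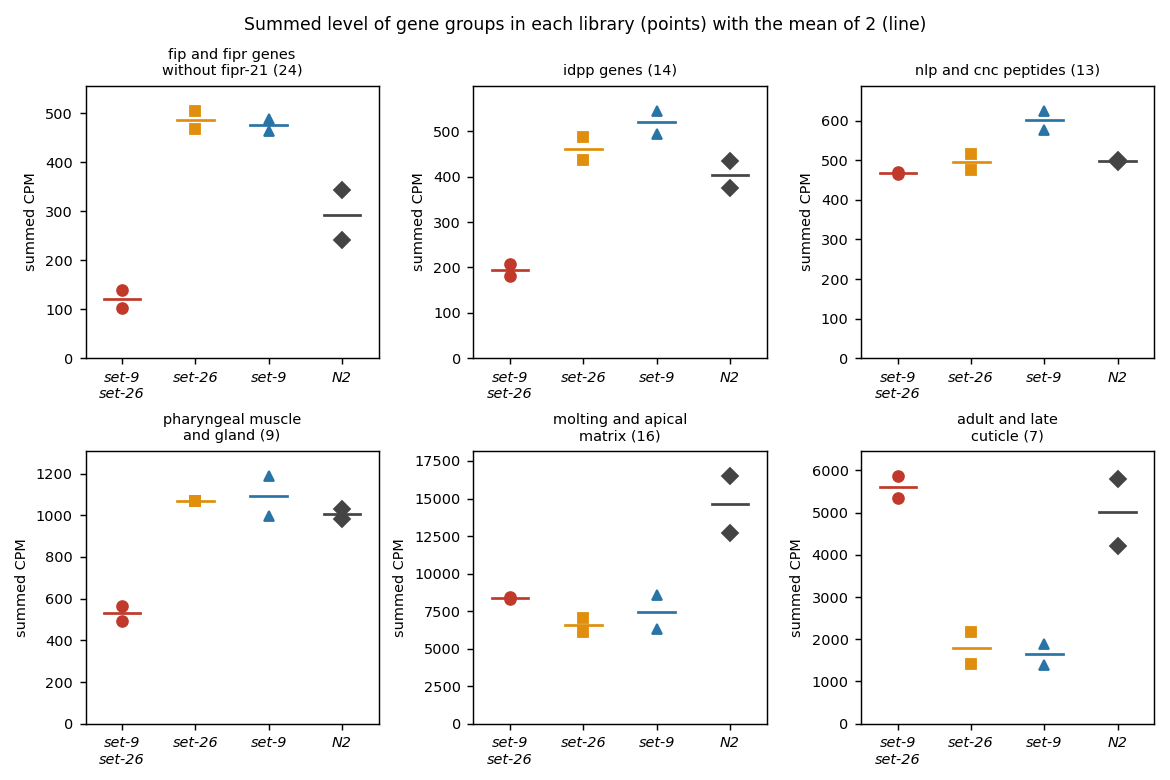
Summed CPM of 6 gene groups in each library (points) with the mean of the 2 libraries (line), for the double mutant, set-26, set-9 and N2 from left to right, with the number of genes in brackets. The fip and fipr genes without fipr-21 and the pharyngeal markers are lowest in the double mutant, the adult cuticle genes in the single mutants, and the molting genes are highest in N2.

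Markers of other tissues were counted in the same way. Of 7 neuron markers and of 9 oocyte markers 0 passed in any mutant against N2. Of 7 epidermis markers, elt-3 and nhr-23 were lower in the double mutant and che-14 in set-26, and of 10 germ line markers only htp-3 was lower in the double mutant. Body wall muscle markers summed to 14752 and 14932 CPM in the double mutant, 16689 and 17297 CPM in set-26, 18385 and 19993 CPM in set-9, and 17151 and 18799 CPM in N2, and 0 of the 6 passed in any mutant against N2. Of the 10 intestine markers 4 were lower in the double mutant and 1 in set-26, and the list summed to 13988 and 12431 CPM in the double mutant, 11610 and 11400 CPM in set-26, 17596 and 15689 CPM in set-9, and 22596 and 16518 CPM in N2. Against the sum of the set-26 and set-9 changes, 2 intestine markers were above (vit-2 by 5.04 and vit-6 by 4.66) and 4 below. Of the epidermis markers 2 were above it and 1 below. The oocyte marker oma-1 was above it by 1.18, and ric-4 of the neuron list and htp-3 of the germ line list were below.

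The 2 libraries of a genotype differed in these genes too, which is given as a description on the log2 scale of CPM plus 1. In the double mutant 29 of 39 members were higher in replicate 1 than in replicate 2, with a median log2 difference of 0.22 against 0.01 for all genes. In N2 it was 27 of 39, with a median of 0.25 against −0.01, and 3 members differed by over 2-fold, all of them higher in replicate 1. In set-26 the median was 0.12 and in set-9 0.03. The median size of the difference, whatever its direction, was 0.27 for members and 0.18 for all genes in the double mutant, and 0.38 and 0.22 in N2. fipr-7 (88.0 and 52.2 CPM) and fipr-3 (6.54 and 2.72 CPM) were among the members whose N2 libraries lay apart in this way.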

How the data were processed

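RNA-seq counts of 8 libraries of synchronized L4 worms were used, 2 for each genotype as the labels give them; the ChIP-seq libraries were not analysed here. The authors filtered reads by quality (FASTX), trimmed them (cutadapt), discarded those of tRNA and rRNA (Bowtie), aligned the remainder to WS250 (assembly WBcel235) with TopHat2 without new junctions, and deposited estimated counts per gene from Cufflinks, not scaled for library size. The 93 landmark entries, 0.219% to 0.277% of reads, were left out. After rounding of the counts, 14667 genes had 20 or more reads in some library and entered the quasi-likelihood test of edgeR 4.0.16 (R 4.3.3, TMM scaling), with 4 genotype means and all 8 libraries in the fit (common biological coefficient of variation 0.206). Benjamini-Hochberg adjustment ran over all genes tested, and a gene was called at a 5% false discovery rate. Standard errors are the log2 fold change divided by the square root of the F statistic. Counting intervals are exact, at 95%.

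Alternatives were DESeq2 1.42.0 (Wald test), DESeq2's size factors, upper quartile scaling, 20 reads in every library or no filter, a fit to the compared libraries alone, a replicate block and each library left out. The scripts were tested on simulated data. Gene positions, exon lengths and upstream sequences came from the Ensembl and RefSeq annotations of WBcel235, and proteins were translated and aligned with Biopython 1.88. Fold changes were named for the members called, and levels for these, for the 10 members with the highest mean CPM, for fipr-2 and for those at the edge of the filter. The members and gene lists were chosen with earlier results of these data known. Lists were the nlp and cnc peptides, epidermal immune signalling, other disordered protein classes, molting, furrow collagen and adult cuticle genes and markers of 8 tissues.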

Additional observations from a re-analysis of the deposited data

Results flagged for a closer look

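The effects of the 2 mutations did not add up on the log2 scale for 18 members, by the interaction term of edgeR's quasi-likelihood fit. Each value is the log2 change of the double mutant against N2 minus the sum of the set-26 and set-9 changes. Below the sum were fipr-3 (−4.33), fipr-4 (−4.08), idpp-14 (−3.99), fipr-7 (−3.73), fipr-6 (−3.71), fipr-10 (−3.49), idpp-12 (−3.46), fipr-8 (−3.37), fipr-5 (−3.25), fipr-1 (−3.22), idpp-15 (−3.12), fipr-9 (−3.09), fipr-2 (−3.08), idpp-16 (−2.46) and fip-5 (−1.92). Above it were idpp-1 (1.22), fip-6 (2.12) and fipr-27 (6.25), the last from fewer than 30 reads in every library. The genes fipr-4 to fipr-9 share exon sequence, so their 6 values are not separate measurements.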

How the results depend on the processing

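Among the fold changes of members called in the main fit, none was reversed in direction under any alternative. Of the 19 members called in the double mutant, all kept the call with DESeq2's Wald test, DESeq2's size factors, upper quartile scaling, no filter and the replicate block, 16 with 20 reads in every library, which leaves 3 untested, and 15 in the compared libraries alone. Leaving out single libraries gave 3 to 18 called members there, 0 to 3 in set-26 (main value 3), 0 to 2 in set-9 (main value 0), 0 in set-26 against set-9, and 11 to 18 against the sum (main value 18). A genotype left with 1 library was assumed to vary like the others. Calls over all genes were fewer too in each of these fits for the double mutant, for set-26 and against the sum. In set-9, no filter and DESeq2's Wald test each gave 7 members (fipr-4, fipr-7, fipr-9, idpp-1, idpp-12, idpp-14 and idpp-15) and the replicate block 2 (idpp-1 and idpp-12). In set-26, no filter gave 11 members, DESeq2's Wald test 10 (adding fipr-2, fipr-3, fipr-4, fipr-7, fipr-22, idpp-9 and idpp-14, to which no filter added fipr-9), the replicate block 6 (adding fipr-4, fipr-7 and idpp-9) and the compared libraries alone 0. In the double mutant no filter added fipr-6, fipr-18, fipr-22, fipr-28, idpp-3 and idpp-13, DESeq2's Wald test idpp-13 and the replicate block fipr-6. Over all genes, set-9 calls were 68 in the main fit, 746 of 23454 with no filter, 502 by the Wald test and 196 with the block. In set-26 they were 351, 989 of 23454, 838 and 721, and 15 of 14124 in the compared libraries alone. In the double mutant they were 1516, 2485 of 23454, 1912 and 2442. The cause was not tested. For the 16 members whose call in the double mutant was lost at least once, the adjusted p was at most 0.170.

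The replicate numbers were not taken to pair libraries, and the labels describe no pairing. Across genes, the deviations from the genotype mean were correlated between libraries of the same number in the 6 pairs of genotypes. The r was 0.223 to 0.351 among N2, set-9 and set-26, and 0.0679 to 0.104 in the pairs with the double mutant. The replicate block gave 20 members in the double mutant, where every call made without it was kept, and 20 against the sum. Among the 39 members, 34 had 20 or more reads in both libraries of a genotype. With 2 libraries a genotype and reads shared between near copies, single genes of the chromosome V and III clusters are the least certain, and genes under 3 reads per library could not be told from 0.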

Other observations

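A further 3 pairs of neighbours were read at low levels. On chromosome I, fip-6 and fipr-26 lie 442 bases apart on the same strand: fip-6 was higher in the double mutant, whereas fipr-26 had 5 and 2 reads in the double mutant, 19 and 21 in set-26, 6 and 5 in set-9, and 4 and 0 in N2, and was not called by edgeR. Also on chromosome I, fipr-22 had 11 and 19 reads in the double mutant, 26 and 22 in set-26, 4 and 6 in set-9, and 3 and 0 in N2, while fipr-24, 1275 bases away, had 18 and 20 reads in the double mutant, 15 and 21 in set-26, 9 and 18 in set-9, and 8 and 15 in N2. Of the 50-base stretches of fipr-22, 60.4% recur in the genome, so its reads could be shared with fipr-23. On chromosome IV, fipr-28 and fipr-27 lie 2478 bases apart, and fipr-27 shares 74.9% of its stretches with other places, fip-7 among them. edgeR called neither of the genes on chromosome IV against N2 in any mutant, and with no filter on low counts it called fipr-28 in the double mutant.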
